A study of Arabidopsis thaliana with 9 samples.

Results

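The 51 late embryogenesis abundant (LEA) genes of Arabidopsis thaliana, dehydrin genes included, were followed in seedlings of 3 genotypes. They were taken by identifier from a table of 32548 genes, as the LEA families with EM1, EM6, COR15A, COR15B and RAB18 among them, and all 51 were found. LEA proteins are small, hydrophilic and mostly unfolded proteins that build up in the embryo as the seed dries, and they are known for protecting membranes and enzymes against loss of water. Dehydrins are one family of them; others carry the domain names LEA_1 to LEA_5, SMP (seed maturation protein) and PvLEA18. A number of these genes are also switched on in leaves by abscisic acid, drought or cold, so the families hold seed-type genes and leaf-type genes side by side.

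RNA came from whole 11-day-old seedlings, grown on Murashige and Skoog plates, with 3 libraries per genotype. In ring1a1b (ring1a-/- ring1b-/-) the genes of RING1A and RING1B are disrupted, which belong to Polycomb repressive complex 1 and attach ubiquitin to histone H2A. In al24567 (al2-/- al4-/- al5-/- al6-/- al7-/-) 5 genes of ALFIN-like proteins are disrupted, plant homeodomain proteins that recognise histone H3 with methyl groups on lysine 4. Col-0 is the wild type, and the study asks how these proteins connect. The labels give 1 line per genotype and do not tell if replicates were grown apart or how many seedlings were pooled, so the p-values cover the spread among these libraries, which may be technical. Tissues were not separated, and in whole seedlings fewer cells of a type and less RNA per cell cannot be told apart.

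Values are adjusted read counts, which are read counts brought to a common library size and not divided by gene length. Whole reads could be recovered from them, and the libraries held 18258434 to 22435658 reads. A gene without reads in a library can therefore lie at up to 0.134 to 0.164 CPM (3 reads of the library total, counting error only). The disrupted genes followed the labels except AL5: AL2, AL4, AL6 and AL7 were lower in al24567 with log2 differences of -2.69, -1.74, -1.72 and -1.95, and AL5 stood at 88.4 ± 1.04 in al24567 and 92.0 ± 6.59 in Col-0 (SD, n = 3 each). RING1A averaged 1.33 ± 1.56 in ring1a1b and 148 ± 15.6 in Col-0, and RING1B averaged 61.0 ± 8.97 in ring1a1b and 107 ± 23.1 in Col-0. Summed values of the 5 leaf markers were 775200 to 877500 in ring1a1b and 689700 to 885400 in al24567, against 809400 to 921600 in Col-0. Those of the 4 root markers were 1483 to 2092 in ring1a1b and 2333 to 2793 in al24567, against 1402 to 1577 in Col-0. All 4 root markers were higher in al24567, where 17.9% of all genes tested were. Of the leaf markers, PSAF was lower in ring1a1b (-0.34 on the log2 scale, adjusted p = 0.0343, limma), where 7.67% of all genes tested were. The part of tissue shares in the results was not tested.

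The genes were split by their level in Col-0 alone. Silent genes had at most 3 reads over the 3 Col-0 libraries together, expressed genes had a mean Col-0 value of at least 20, and low genes lay between. This gave 20 silent, 13 low and 18 expressed genes. Just inside the silent class lay AT4G36600, XERO1 and AT2G33690 with 3 Col-0 reads each, and just outside it lay EM6 with 5 and M10 with 6. Just inside the expressed class lay AT3G02480 at a mean of 22.9, and just outside it LEA7 at 14.3 and AT3G17520 at 14.1. All 3 LEA_2 genes and 6 of 10 dehydrins were expressed, whereas 5 of 6 SMP genes and 8 of 18 LEA_4 genes were silent. Differences between a mutant and Col-0 within a class share the Col-0 libraries that chose the class, so for classes they are given as a description. The comparison of ring1a1b with al24567 does not use the Col-0 levels, but for many silent genes it rests on the same ring1a1b libraries that brought them past the filter on low values, and is a description there too.

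The 250 bases before the annotated start of 6 genes are shown first, because the classes that follow differ in how often they hold the motifs marked in them. EM1 and AT4G36600 were silent in Col-0, AT3G15670 and LEA18 were low, and COR15A and SAG21 were expressed. Capitals mark the letters ACGTG, the core of the abscisic acid response element that bZIP factors such as ABI5 bind, CCGAC, the core of the dehydration and cold response element that CBF factors bind, and CATGCA, the RY element of B3 factors such as ABI3, each on either strand. Sequences are from RefSeq TAIR10.1, written 5′ to 3′ on the strand of the gene. The windows are chr3:19214472-19214721 (plus strand) for EM1, chr4:17263314-17263563 (plus) for AT4G36600, chr3:5310989-5311238 (minus) for AT3G15670, chr2:14863413-14863662 (minus) for LEA18, chr2:17712331-17712580 (minus) for COR15A and chr4:1047106-1047355 (minus) for SAG21, and they hold no part of another annotated gene.
EM1: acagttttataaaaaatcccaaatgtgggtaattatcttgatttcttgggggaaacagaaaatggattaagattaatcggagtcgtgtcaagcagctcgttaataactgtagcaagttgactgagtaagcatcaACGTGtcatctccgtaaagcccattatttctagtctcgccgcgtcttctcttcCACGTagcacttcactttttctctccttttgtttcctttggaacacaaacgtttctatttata
AT4G36600: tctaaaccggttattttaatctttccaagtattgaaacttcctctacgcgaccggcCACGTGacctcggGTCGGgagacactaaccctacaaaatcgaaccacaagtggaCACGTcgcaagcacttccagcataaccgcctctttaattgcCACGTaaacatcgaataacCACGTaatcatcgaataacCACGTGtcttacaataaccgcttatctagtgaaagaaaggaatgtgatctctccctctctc
AT3G15670: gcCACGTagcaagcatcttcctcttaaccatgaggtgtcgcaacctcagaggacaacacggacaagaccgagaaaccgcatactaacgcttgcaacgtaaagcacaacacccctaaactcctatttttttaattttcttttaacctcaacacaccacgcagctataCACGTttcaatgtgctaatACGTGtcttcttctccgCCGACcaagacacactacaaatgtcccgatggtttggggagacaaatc
LEA18: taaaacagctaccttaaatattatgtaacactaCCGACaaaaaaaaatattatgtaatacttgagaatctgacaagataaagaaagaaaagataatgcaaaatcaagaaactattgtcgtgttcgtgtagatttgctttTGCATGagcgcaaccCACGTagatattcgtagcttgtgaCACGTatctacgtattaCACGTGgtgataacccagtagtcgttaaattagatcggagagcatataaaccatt
COR15A: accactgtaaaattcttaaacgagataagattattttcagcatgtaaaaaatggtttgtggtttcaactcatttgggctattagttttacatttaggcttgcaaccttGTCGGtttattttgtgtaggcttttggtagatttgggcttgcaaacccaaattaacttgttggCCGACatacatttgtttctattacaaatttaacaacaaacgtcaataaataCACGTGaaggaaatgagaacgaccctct
SAG21: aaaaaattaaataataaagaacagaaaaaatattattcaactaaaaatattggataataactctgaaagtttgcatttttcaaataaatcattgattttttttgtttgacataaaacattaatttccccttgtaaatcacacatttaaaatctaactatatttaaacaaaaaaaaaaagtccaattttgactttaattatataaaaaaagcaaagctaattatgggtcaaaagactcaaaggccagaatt

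An ACGTG core stands 5 times before AT4G36600, 3 times each before AT3G15670 and LEA18, 2 times before EM1, 1 time before COR15A and 0 times before SAG21. COR15A has 2 CCGAC cores, AT4G36600, AT3G15670 and LEA18 have 1 each, and LEA18 has a CATGCA element. Cores that share the palindrome CACGTG were counted once, and CATGCA matches may overlap each other. Over all 51 LEA windows, 70.6% held at least 1 ACGTG core, against 21.8% of the windows of 32546 genes, and 45.1% held 2 or more, against 4.5%. CCGAC stood in 35.3% of LEA windows and 11.7% of all windows, and CATGCA in 17.6% and 8.77%. By class, an ACGTG core stood before 80% of silent, 84.6% of low and 50% of expressed LEA genes, where the shares among all genes of the same Col-0 class were 17.8%, 23.9% and 23.6%. These matches describe letters in a window and are not shown to be sites. Windows of several LEA genes reach into a neighbouring gene, among them that of COR15B, most of which lies in the COR15A gene next to it.

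**Figure D1:**
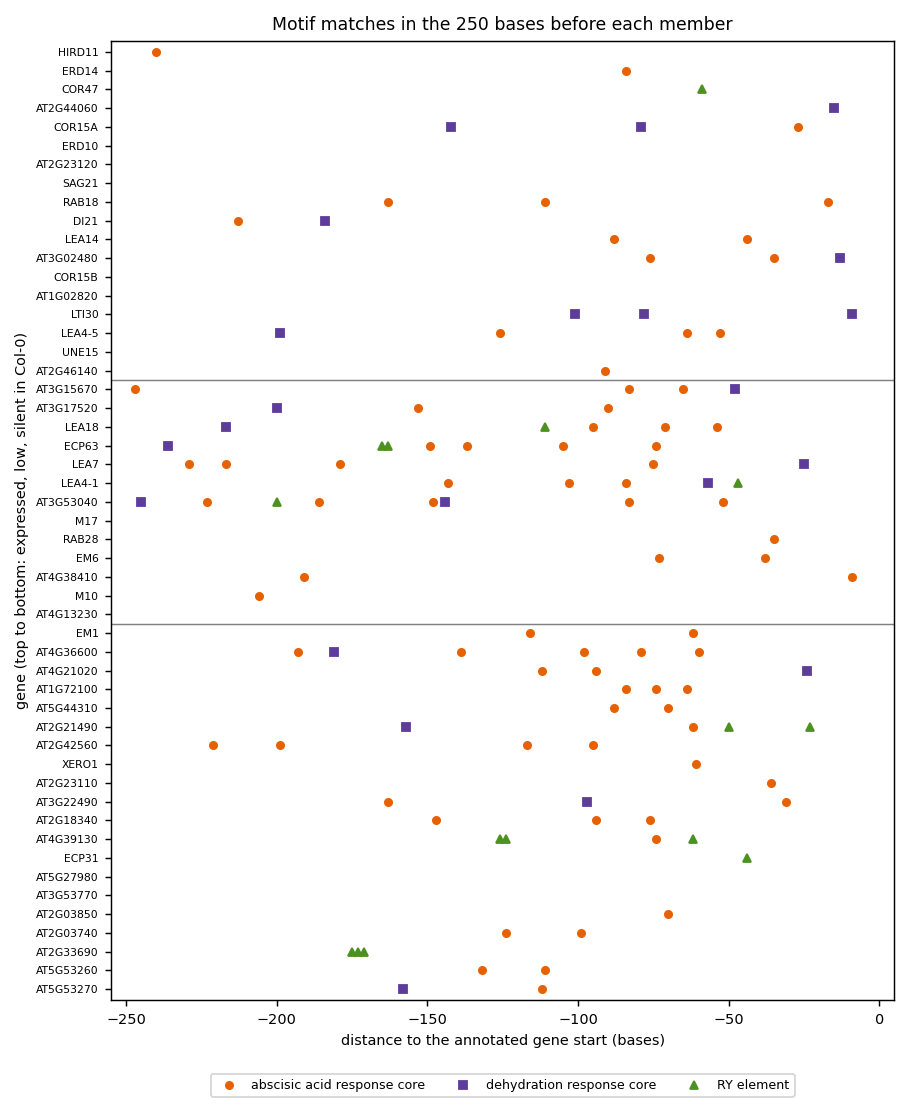
Positions of the 3 motifs in the 250 bases before each LEA gene, with the distance to the annotated start in bases on the x axis and 1 gene per row, grouped as expressed, low and silent in Col-0 from top to bottom. Circles are ACGTG cores, squares CCGAC cores and triangles CATGCA elements; ACGTG cores stand before 16 of 20 silent, 11 of 13 low and 9 of 18 expressed genes.

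In seedlings of ring1a1b, 32 of the 51 LEA genes were higher than in Col-0 and 1 was lower, among them 11 silent, 9 low and 12 expressed genes. The test was limma on log2(value + 1) over the 23207 genes that reached a value of 1 in 3 libraries or more, and a call is a Benjamini-Hochberg adjusted p under 0.05; in the same test 10% of genes were higher and 7.67% lower. In al24567 11 LEA genes were higher and 6 lower than in Col-0, where the background was 17.9% and 18.4%. Between the mutants, 33 LEA genes were higher in ring1a1b than in al24567 and 2 were lower, with a background of 20% and 18.9%. Of the 51 genes, 44 passed the filter on low values, and 9 of the 13 silent genes among them passed only through the ring1a1b libraries, so a difference from the other genotypes was built into their choice: EM1, AT4G21020, AT5G44310, AT2G42560, AT2G21490, AT2G23110, AT2G18340, AT3G22490 and AT5G27980. The first 8 of these are among the 11 silent genes counted as higher in ring1a1b, and their calls are a description with no support drawn from them. The 7 that did not pass were all silent: AT4G39130, ECP31, AT3G53770, AT2G33690, AT2G03740, AT5G53260 and AT5G53270. Over all genes, 2331 were higher and 1780 lower in ring1a1b than in Col-0, and 2671 and 1156 with library totals set equal; between the mutants the numbers were 4652 and 4388, and 6035 and 3249 with equal totals. Both mutants were compared with the same Col-0 libraries. Every ring1a1b library lay above every Col-0 library in 12 silent, 9 low and 12 expressed LEA genes (17.3% of all genes tested) and below in 2 expressed genes (18%). The 9 genes that passed the filter only through ring1a1b are among these 12 silent genes, so the silent count is a description. Only tested genes are counted, and AT4G39130, below the filter, also had every ring1a1b library above every Col-0 library. For al24567 against Col-0 the genes above were 2 silent, 1 low and 4 expressed (22.6%) and those below 1 low and 6 expressed (24%). For ring1a1b against al24567 they were 11 of each class above (24%) and 2 expressed below (22.6%). The 11 silent genes here also include genes that passed the filter only through ring1a1b, so their count is a description.

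Summed over each class, the silent genes had 91.5, 72.8 and 87.8 CPM in ring1a1b and 2.46, 1.53 and 0.746 in al24567, against 0.0519, 0.323 and 0.357 in Col-0. The low genes had 118, 83.5 and 107.5 CPM in ring1a1b and 9.26, 4.27 and 5.65 in al24567, against 4.82, 3.13 and 3.70 in Col-0. For the expressed genes the sums were 2740, 2463 and 2595 in ring1a1b and 1830, 1991 and 1673 in al24567, against 1880, 2004 and 1987 in Col-0. Sums of ring1a1b lay above those of both other genotypes in all 3 classes. The low and expressed sums of al24567 and Col-0 overlapped, and the silent sums of al24567 lay above those of Col-0. Even in ring1a1b the silent and low genes together made up a small part of LEA reads, which came mainly from the expressed dehydrins.

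**Figure D2:**
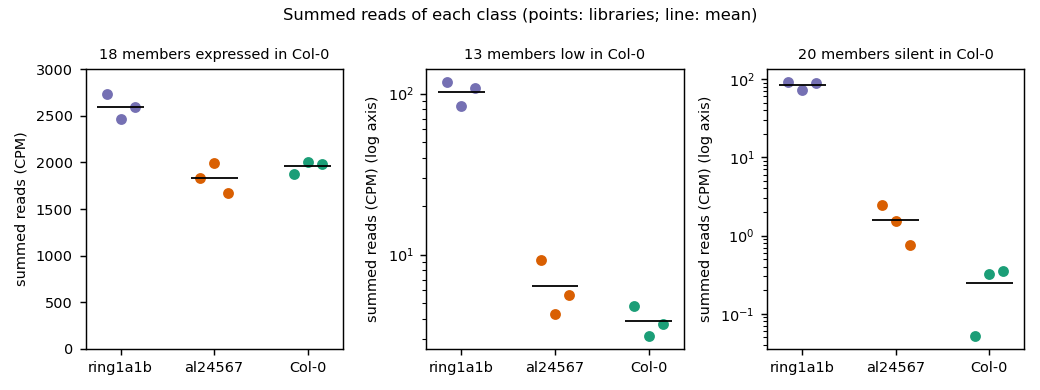
Summed reads in CPM (y axis; from 0 for expressed genes, log axes for low and silent genes) in ring1a1b, al24567 and Col-0, from left to right. Points are libraries and lines their means; silent genes summed to 72.8 to 91.5 CPM in ring1a1b, 0.746 to 2.46 in al24567 and 0.0519 to 0.357 in Col-0.

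In ring1a1b, 13 of the 20 silent genes had reads in all 3 libraries; genes known from seeds, such as M17 and EM6, were also among the low genes. EM1 (AT3G51810, chr3:19214722-19215831, plus strand), which encodes a LEA_5 protein of dry seeds, had 585, 337 and 564 reads in the 3 ring1a1b libraries and 12, 6 and 0 in al24567, against 0, 0 and 0 in Col-0. It was at least 498-fold higher in ring1a1b than a floor of 3 reads over the 3 Col-0 libraries, a size given as a description since these libraries also chose the gene. AT4G36600 (chr4:17263564-17265172, plus strand), a LEA_4 gene, had 443, 344 and 390 reads in ring1a1b and 9, 8 and 8 in al24567, against 0, 2 and 1 in Col-0. Its ratio between ring1a1b and Col-0 was 395, with a 95% counting interval of 135 to 1920 (adjusted p = 9.53e-11, limma). In each of these genes the lowest ring1a1b library lay far above every library of the other genotypes. Per kilobase of exon EM1 reached an adjusted read count of 527 in ring1a1b, close to the 528 of LTI30 in ring1a1b. LTI30, a dehydrin gene expressed in Col-0, stood at 295.5 per kilobase in Col-0.

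A further 4 LEA_4 genes of the silent class had over 50 reads in ring1a1b and 0 in Col-0. AT4G21020 (chr4:11228187-11229616, plus strand) had 171, 154 and 189 reads in ring1a1b and 5, 4 and 0 in al24567, and was at least 172-fold higher in ring1a1b than in Col-0. AT1G72100 (chr1:27127170-27128978, plus strand) had 193, 156 and 145 reads in ring1a1b and 10, 4 and 1 in al24567, a difference from Col-0 of at least 166-fold in ring1a1b. AT5G44310 (chr5:17847781-17849536, minus strand) had 148, 97 and 113 reads in ring1a1b and 2, 0 and 1 in al24567, at least 120-fold above Col-0 in ring1a1b; it lies 8477 bases from RING1A, the gene disrupted in that line, and the part of this position in its level was not tested. For AT2G42560 (chr2:17714638-17716912, minus strand) the reads were 102, 150 and 32 in ring1a1b and 4, 0 and 0 in al24567, at least 95.2-fold above Col-0 in ring1a1b; the fitted log2 difference was 6.30 ± 0.66, and 6.91 without ring1a1b replicate 3, the lowest of the ring1a1b libraries. The dehydrin gene AT2G21490 (chr2:9205990-9207125, minus strand) had 99, 77 and 114 reads in ring1a1b and 0, 4 and 0 in al24567, and was at least 97.2-fold higher in ring1a1b than in Col-0, where it had 0 reads. AT1G72100, which also passed the filter through the al24567 libraries, was called higher (adjusted p = 7.51e-09, limma), and the sizes of the other 4 are a description.

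Other silent genes reached lower levels in ring1a1b. XERO1 (AT3G50980, chr3:18941925-18942940, plus strand), a dehydrin gene next to LTI30, had 28, 34 and 14 reads in ring1a1b and 6, 1 and 0 in al24567, against 0, 0 and 3 in Col-0, a ratio of 25.5 between ring1a1b and Col-0 (8.39 to 126; adjusted p = 0.000463, limma). The fitted log2 difference of XERO1 was 3.97 ± 0.70, and 4.59 without Col-0 replicate 3, which holds all 3 of its Col-0 reads. AT2G23110, of the PvLEA18 family (chr2:9840456-9841366, plus strand), had 10, 21 and 19 reads in ring1a1b and 0, 0 and 1 in al24567, against 0, 1 and 1 in Col-0, a ratio of 25.1 (6.61 to 213). For AT2G18340, a LEA_4 gene (chr2:7969298-7971114, plus strand), reads were 15, 10 and 3 in ring1a1b and 0, 0 and 0 in al24567, against 0, 2 and 0 in Col-0, a ratio of 14.1 (3.55 to 122; adjusted p = 0.0117). The call of AT2G18340 was lost without any 1 of 4 libraries (ring1a1b replicates 1 and 2, Col-0 replicates 1 and 3, adjusted p 0.0551 to 0.0845, limma) and by DESeq2 (0.0532). AT2G23110 and AT2G18340 passed the filter only through the ring1a1b libraries, so their sizes and calls are a description.

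The SMP genes AT3G22490 and ECP31 lie close together on chromosome 3, and both had their highest level in ring1a1b replicate 2. AT3G22490 (chr3:7969681-7970843, minus strand) had 5, 29 and 3 reads in ring1a1b and 0 in the 6 other libraries, at least 12.4-fold above Col-0 (adjusted p = 0.00435, limma, and 0.133 by DESeq2). Its size and call are a description, since it passed the filter only through the ring1a1b libraries. ECP31, which did not pass the filter, had 2, 10 and 0 reads in ring1a1b and 0 elsewhere. Without ring1a1b replicate 2, the mean levels of AT3G22490 and ECP31 in ring1a1b were 0.329 and 0.254 of those over all 3 libraries. The dehydrin gene AT4G39130, also below the filter, had 6, 1 and 14 reads in ring1a1b and 0 elsewhere, and without replicate 3 its mean was 0.491 of that over all 3. The reads that remain for these genes are few.

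The rest of the silent class stayed at or near 0 in all genotypes. AT5G27980 (SMP) had 2, 2 and 3 reads in ring1a1b and 0, 1 and 2 in al24567, against 0, 0 and 0 in Col-0, and was not called (adjusted p = 0.0827 in ring1a1b, limma). AT2G03850 and AT3G53770 had at most 2 reads in any library, and AT2G33690 had reads only in Col-0 replicate 3, where it had 3. AT2G03740, AT5G53260 and AT5G53270 had 0 reads in all 9 libraries. Of the 20 silent genes, 11 were higher in ring1a1b, where 2.29% of the 10298 genes of the table silent in Col-0 were. The other 9 LEA genes were not called or had too few reads to be tested. Both shares count untested genes and rest on unlike tested parts. Of the 10298 genes 1053 were tested, and of the 20 LEA genes 13, of which 9 passed only through ring1a1b, so the shares are a description.

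In al24567 the silent genes were nearer to Col-0, and 4 of the 20 were called higher: AT4G36600, AT1G72100, EM1 and AT4G21020. Of all genes silent in Col-0, 0.709% were. These shares also rest on unlike tested parts: 1053 of the 10298 silent genes of the table were tested, against 13 of the 20 LEA genes. EM1 and AT4G21020 were tested only because the ring1a1b libraries brought them past the filter, so the shares are a description. AT4G36600 had a ratio of 9.03 between al24567 and Col-0 (2.76 to 46.7; adjusted p = 6.55e-05, limma), and AT1G72100 was at least 5.42-fold higher (adjusted p = 0.00117). EM1 was at least 6.5-fold higher (adjusted p = 0.00786), but had 0 reads in al24567 replicate 3, and its call was lost without replicate 1 (adjusted p = 0.0571); its fitted log2 difference of 2.26 ± 0.62 was 1.54 without replicate 1 and 3.29 without replicate 3. AT4G21020 was at least 3.25-fold higher (adjusted p = 0.0232), also with 0 reads in replicate 3, and its call was lost without replicate 1 (0.119) or replicate 2 (0.0996); its fitted difference of 1.69 ± 0.56 was 2.48 without replicate 3. Of the 4, AT4G36600 and AT1G72100 had every al24567 library above every Col-0 library. The silent reads of al24567 summed to 50, 28 and 14 in replicates 1 to 3, against 1, 6 and 8 in Col-0.

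Set directly against al24567, silent genes were called higher in ring1a1b in 11 of 20 cases, 8 of them genes that passed the filter only through ring1a1b, so nothing is read from this count beside the 2.46% of all genes silent in Col-0. EM1 differed by 6.62 ± 0.62, AT5G44310 had a ratio of 111 (37.6 to 539), and AT4G36600 differed by 5.29 ± 0.39 (adjusted p = 4.97e-09, limma). Without al24567 replicate 1 or 3 the difference of EM1 was 7.34 or 5.59, and without replicate 3 that of AT4G21020 was 4.91 in place of 5.70.

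Low genes had a few reads in Col-0, and 9 of the 13 were higher in ring1a1b, against 10.1% of all genes that were low in Col-0. AT3G15670 (chr3:5309886-5310988, minus strand), a LEA_4 gene, had values of 706, 452 and 708 in ring1a1b and 18.0, 5.40 and 2.47 in al24567, against 3.10, 2.12 and 1.66 in Col-0. It rose by 7.56 ± 0.46 on the log2 scale in ring1a1b (adjusted p = 1.63e-09, limma). LEA18 (AT2G35300, chr2:14862779-14863412, minus strand), of the LEA_1 family, had values of 281, 154 and 234 in ring1a1b and 5.01, 1.11 and 3.33 in al24567, against 3.10, 3.14 and 0.76 in Col-0, and rose by 6.13 ± 0.47 (adjusted p = 2.82e-08). The al24567 and Col-0 values of these genes overlapped, whereas those of ring1a1b were far above both. Per kilobase AT3G15670 reached 609.5 in ring1a1b, the highest of the low and silent genes there.

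ECP63 (AT2G36640, chr2:15356830-15358619, minus strand), an embryonic cell protein of the LEA_4 family, had values of 275, 150.1 and 192 in ring1a1b and 12.0, 3.32 and 11.0 in al24567, against 4.18, 5.27 and 6.04 in Col-0, and rose by 5.03 ± 0.41 in ring1a1b. AT3G17520 (chr3:5999174-6000447, minus strand) had 446, 327 and 473 in ring1a1b and 69.1, 10.1 and 42.1 in al24567, against 18.6, 12.7 and 10.9 in Col-0, and rose by 4.80 ± 0.45. LEA4-1 (AT1G32560, chr1:11774484-11775442, plus strand), a LEA_1 gene, had 168, 131 and 134 in ring1a1b and 7.01, 1.12 and 2.29 in al24567, against 11.3, 3.22 and 3.25 in Col-0, and rose by 4.58 ± 0.50. In all of them the ring1a1b libraries stood clear of the rest. AT3G53040 (chr3:19664629-19666497, minus strand), whose window held 5 ACGTG and 2 CCGAC cores, had 69.9, 95.7 and 37.8 in ring1a1b and 0, 5.20 and 0 in al24567, against 3.11, 3.15 and 1.64 in Col-0, and rose by 4.18 ± 0.62. M17 (AT2G41260, chr2:17206452-17207698, plus strand), a transcript of maturing seeds, had 99.3, 50.3 and 37.8 in ring1a1b and 3.01, 3.16 and 0.053 in al24567, against 8.26, 2.18 and 6.02 in Col-0, and rose by 3.31 ± 0.57. The adjusted p of these 5 lay between 6.17e-08 and 0.000433 (limma).

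LEA7 (AT1G52690, chr1:19619724-19621534, plus strand), a LEA_4 gene, was the low gene that differed most clearly in both mutants. Its values were 164, 154 and 159.9 in ring1a1b and 56.1, 39.4 and 34.8 in al24567, against 14.6, 13.7 and 14.6 in Col-0, and the 3 genotypes did not overlap. It rose by 3.39 ± 0.25 in ring1a1b (adjusted p = 1.43e-08, limma) and by 1.51 ± 0.25 in al24567 (adjusted p = 8.5e-05). EM6 (AT2G40170, chr2:16779552-16780368, minus strand), the second LEA_5 gene, had 19.5, 7.55 and 6.15 in ring1a1b and 5.01, 1.10 and 1.18 in al24567, against 1.05, 0 and 3.57 in Col-0. It rose by 2.34 ± 0.66 in ring1a1b (adjusted p = 0.0179), a call that was lost without ring1a1b replicate 1 (0.108), Col-0 replicate 1 (0.0563) or Col-0 replicate 2 (0.0987). So EM6 stayed at a few reads where EM1, of the same family, reached over 300 reads in each library.

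Besides LEA7, the other call among the 13 low genes in al24567, where 8.14% of all low genes were higher, was AT3G15670, at 1.21 ± 0.46 (adjusted p = 0.0484, limma), and it rested on the value of 18.0 in replicate 1: without that library the difference was 0.54 (adjusted p = 0.31). The adjusted p was also above the threshold without al24567 replicate 2 (0.0566), without any of the 3 Col-0 replicates (0.0518 to 0.13) and under 5 other settings (0.0524 to 0.148). AT3G17520 was just short of a call in al24567 (1.13 ± 0.45, adjusted p = 0.055); with replicate number as a block its adjusted p was 0.0189, by edgeR it was 0.00643, and without al24567 replicate 2, the library with 10.1, it was 5.15e-05 with a difference of 1.90. Against al24567, 10 low genes were higher in ring1a1b, where 16.8% of all low genes were, with a median difference of 3.67 over the 13 and 0.20 over all low genes tested. The tenth was RAB28, an SMP gene, with 22.4, 13.3 and 9.21 in ring1a1b and 6.01, 3.22 and 3.38 in al24567, against 12.4, 7.41 and 6.70 in Col-0 (ring1a1b minus al24567 1.57 ± 0.46, adjusted p = 0.011; 0.0743 without ring1a1b replicate 1). The call of EM6 between the mutants (1.84 ± 0.66, adjusted p = 0.0338, limma) was lost with a pseudocount of 0.1 (0.127) and by DESeq2 (0.0727). It was also lost without al24567 replicate 2 or 3 or ring1a1b replicate 1 (adjusted p 0.108 to 0.174, limma). M10, AT4G38410 and AT4G13230 were not called in any comparison, with values of 0 to 11.5 in all libraries. M10 was just short of a call between the mutants (ring1a1b minus al24567 1.68 ± 0.68, adjusted p = 0.0577, limma), and these libraries did not overlap. Its adjusted p was 0.0369 with only a value above 0 required, 0.0484 with equal totals and 0.041 without ring1a1b replicate 1. These levels are a few reads.

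**Figure D3:**
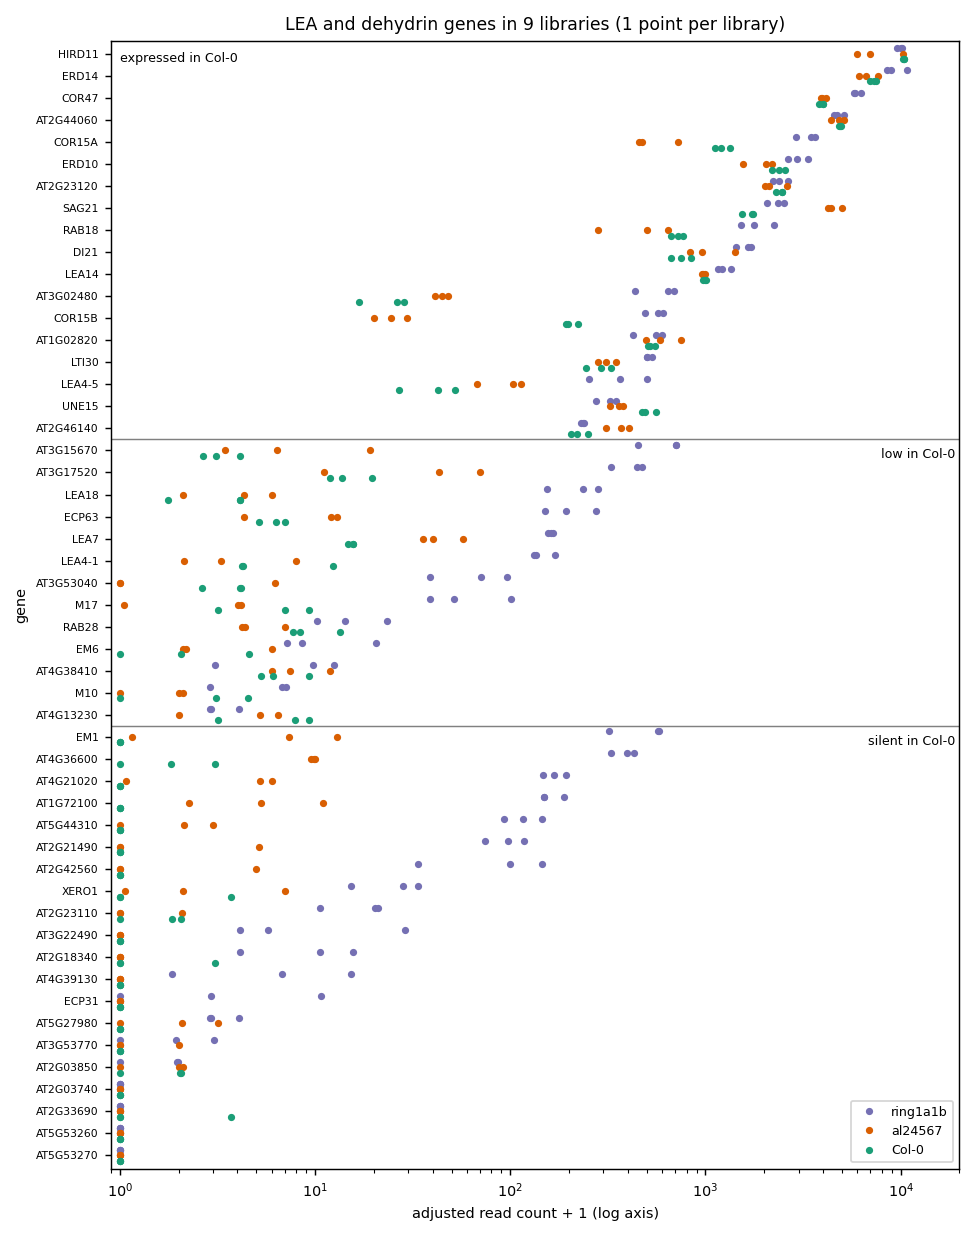
Adjusted read count + 1 (log x axis) of all 51 LEA genes in the 9 libraries, 1 gene per row and 1 point per library, for ring1a1b, al24567 and Col-0. Rows are grouped as expressed, low and silent in Col-0 and ordered by the ring1a1b mean; EM1 lies at 320.4 to 574 in ring1a1b and at 0 in all Col-0 libraries, whereas HIRD11 lies between 6000 and 10430 in all 9.

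Among the 18 genes that are expressed in Col-0, ring1a1b differed by less: 12 were higher and 1 lower, against 9.28% and 9.23% of all expressed genes, with a median log2 difference of 0.42 over the 18 and -0.035 over all expressed genes. In al24567 5 were higher and 6 lower, against 20.5% and 21.6%, with a median of -0.023 and -0.024. All 6 LEA genes lower in al24567 belonged to this class. Silent genes, with at most 3 reads over the Col-0 libraries, could not be called lower, and low genes had little room to fall. Nothing is therefore read from the class of these 6. Set against al24567, 12 of the 18 were higher in ring1a1b and 2 lower, against 20.4% and 21.8%. Per kilobase the level in Col-0 was highest for HIRD11 (9320) and ERD14 (6106), both dehydrins, followed by AT2G44060 (3438), AT2G23120 (3046), SAG21 (1728) and COR47 (1694), and lowest for LEA4-5 (43.8) and AT3G02480 (41.6).

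COR15A and COR15B, neighbouring cold-regulated genes for LEA_4 proteins of the chloroplast stroma, moved in opposite directions in the mutants. COR15A (AT2G42540, chr2:17710441-17712330, minus strand) had values of 3647, 2916 and 3480 in ring1a1b and 456, 471 and 724 in al24567, against 1196, 1332 and 1123 in Col-0. It rose by 1.46 ± 0.13 in ring1a1b (adjusted p = 2.59e-07, limma) and fell in al24567, with a difference of -1.17 ± 0.13 (adjusted p = 1.28e-06). COR15B (AT2G42530, chr2:17708593-17710433, minus strand) had 568, 487 and 604 in ring1a1b and 19.1, 23.4 and 28.6 in al24567, against 221, 193 and 196 in Col-0. It rose by 1.44 ± 0.17 in ring1a1b (adjusted p = 4.81e-06) and fell in al24567, with a difference of -3.06 ± 0.17 (adjusted p = 1.65e-10). Neither gene had overlapping values between any 2 genotypes, and COR15B had the largest fall of the 44 LEA genes tested. Between the mutants COR15A differed by 2.63 ± 0.13 and COR15B by 4.50 ± 0.17. The longest run shared by their transcripts is 31 bases, so most reads can be placed, but COR15B also shares 468 exonic bases with AT2G42520 on the opposite strand, whose reads cannot be told apart without stated strand.

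RAB18 and ERD10 were the other members called in opposite directions. RAB18 (AT5G66400, chr5:26518277-26519447, minus strand), a dehydrin gene induced by abscisic acid, had 2238, 1514 and 1776 in ring1a1b and 639, 279 and 504 in al24567, against 770, 723 and 668 in Col-0. It rose by 1.34 ± 0.20 in ring1a1b (adjusted p = 7.9e-05, limma) and fell in al24567, with a difference of -0.68 ± 0.20 (adjusted p = 0.0107). The fall was lost without al24567 replicate 2, the lowest library (-0.34, adjusted p = 0.0527), and by DESeq2 (0.133). ERD10 (AT1G20450, chr1:7087903-7089606, minus strand), an acidic dehydrin gene, had 3363, 2661 and 2956 in ring1a1b and 1555, 2185 and 2032 in al24567, against 2186, 2568 and 2376 in Col-0, with differences of 0.33 ± 0.11 (adjusted p = 0.0388) and -0.32 ± 0.11 (adjusted p = 0.0262). Both ERD10 calls were lost when single libraries were left out: in al24567 without al24567 replicate 1 (0.162), Col-0 replicate 2 (0.119) or Col-0 replicate 3 (0.0693), and in ring1a1b without ring1a1b replicates 1 or 3 or Col-0 replicates 1 or 3 (0.0828 to 0.174).

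The largest rises of expressed genes in ring1a1b were those of AT3G02480 and LEA4-5, which had the lowest levels of the class in Col-0. AT3G02480 (chr3:512220-513036, plus strand), a LEA_4 gene, had 638, 437 and 688 in ring1a1b and 47.1, 43.5 and 40.1 in al24567, against 15.7, 25.2 and 27.7 in Col-0. It rose by 4.64 ± 0.23 in ring1a1b (adjusted p = 9.07e-11, limma) and by 0.94 ± 0.23 in al24567 (adjusted p = 0.00365). LEA4-5 (AT5G06760, chr5:2089445-2090430, minus strand), a LEA_1 gene induced by drought, had 498, 253 and 365 in ring1a1b and 112, 103 and 66.3 in al24567, against 41.5, 51.4 and 25.8 in Col-0, and rose by 3.20 ± 0.27 in ring1a1b (adjusted p = 9.16e-08) and by 1.24 ± 0.27 in al24567 (adjusted p = 0.00117). For each of these genes the 3 genotypes did not overlap, with al24567 between the others.

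SAG21 took the other order, with its highest level in al24567. This LEA_3 gene (AT4G02380, chr4:1046042-1047105, minus strand), for a mitochondrial protein linked to senescence and oxidative stress, had 2066, 2527 and 2340 in ring1a1b and 5013, 4224 and 4404 in al24567, against 1539, 1753 and 1725 in Col-0. It rose by 1.44 ± 0.084 in al24567 (adjusted p = 3.41e-10, limma) and by 0.46 ± 0.084 in ring1a1b (adjusted p = 0.000593), and was lower in ring1a1b than in al24567 (-0.98 ± 0.084, adjusted p = 3.35e-08). AT2G46140, a LEA_2 gene, had 234, 237 and 230.2 in ring1a1b and 309.7, 403 and 366 in al24567, against 249, 219 and 203 in Col-0, and rose in al24567 (0.68 ± 0.12, adjusted p = 0.000207). SAG21 and AT2G46140 were the 2 LEA genes lower in ring1a1b than in al24567. SAG21 shares 180 exonic bases with another annotated gene, AT4G04125, on the same strand. DI21 (AT4G15910, chr4:9028262-9029477, plus strand), a drought-induced LEA_3 gene, had 1706, 1431 and 1644 in ring1a1b and 959, 1414 and 836 in al24567, against 839.5, 667 and 744 in Col-0. It rose by 1.09 ± 0.14 in ring1a1b (adjusted p = 1.28e-05), while its call in al24567 (0.48 ± 0.14, adjusted p = 0.00971) was lost without al24567 replicate 2 (0.0581) or Col-0 replicate 2 (0.0583).

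Smaller differences were seen for other dehydrins expressed in seedlings. In ring1a1b LTI30 rose by 0.85 ± 0.12, COR47 by 0.60 ± 0.064 and ERD14 by 0.38 ± 0.091 (adjusted p of 1.86e-06 to 0.00638, limma), and none of the 3 was called in al24567. LEA14, an atypical LEA_2 gene, rose by 0.33 ± 0.072 in ring1a1b. HIRD11, a histidine-rich dehydrin gene, had 10020, 9550 and 10120 in ring1a1b and 6924, 10250 and 6000 in al24567, against 10290, 10400 and 10430 in Col-0. It fell in al24567, at -0.46 ± 0.13 (adjusted p = 0.00707; 0.0869 by DESeq2), where replicate 2 lay with Col-0 and the others below. UNE15, a LEA_4 gene, had 275, 322 and 346 in ring1a1b and 377, 359 and 322 in al24567, against 486, 555 and 471 in Col-0, and was the LEA gene lower in ring1a1b (-0.68 ± 0.11, adjusted p = 0.000175) besides being lower in al24567 (-0.51 ± 0.11, adjusted p = 0.00097). Annotated genes overlap UNE15 on both strands. AT2G44060, AT2G23120 and AT1G02820, at 422 to 5132 in all libraries, were not called in any comparison.

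**Figure D4:**
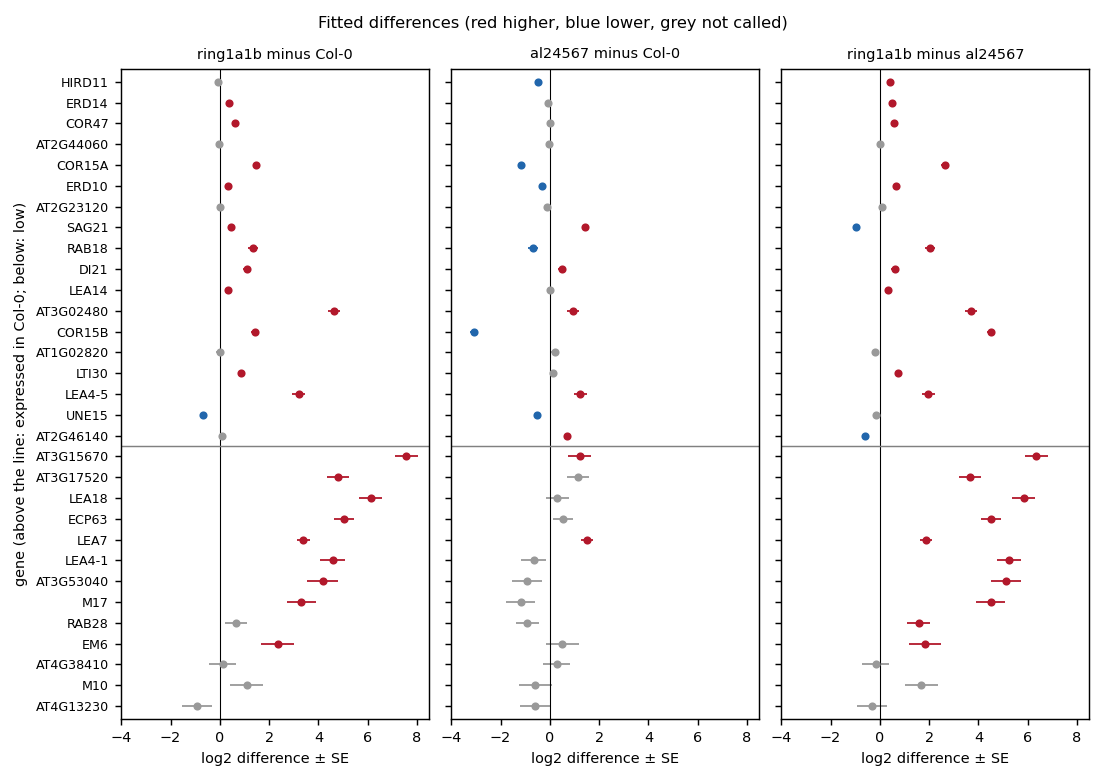
Log2 differences ± SE of the limma fit (x axis) for the 18 expressed and 13 low LEA genes (rows, split by a line), for each mutant minus Col-0, ring1a1b first, and for ring1a1b minus al24567, with 3 libraries per genotype. Red points were called higher, blue lower and grey not called; COR15B stands at 1.44 in ring1a1b and -3.06 in al24567, and AT3G15670 at 7.56 in ring1a1b.

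Within families, the LEA_4 genes had 14 of 18 members higher in ring1a1b and 1 lower, and in al24567 6 higher and 3 lower, where over all genes 10% and 7.67% were higher and lower in ring1a1b and 17.9% and 18.4% in al24567. The share of LEA_4 genes lower in al24567 is near that of all genes. Of the dehydrins 7 of 10 were higher in ring1a1b, whereas the 3 called in al24567, RAB18, HIRD11 and ERD10, were lower. All 3 LEA_1 genes and both LEA_5 genes were higher in ring1a1b, against 1 of 3 LEA_2, 2 of 4 LEA_3, 1 of 6 SMP, 1 of 3 PvLEA18 and 1 of 2 AtM genes. These family counts are a description, since they include genes that passed the filter only through the ring1a1b libraries. Such genes are AT4G21020, AT5G44310, AT2G42560 and AT2G18340 (LEA_4), AT2G21490 (dehydrin), EM1 (LEA_5), AT3G22490 (SMP) and AT2G23110 (PvLEA18). Of the 100 genes with the largest fitted differences between ring1a1b and Col-0, 13 were LEA genes, which make up 0.19% of the genes tested. EM1, AT4G21020, AT5G44310, AT2G21490 and AT2G42560 are among these 13, so the count is a description and no support is drawn from it. An ACGTG core stood before 26 of the 32 genes higher in ring1a1b (81.2%) and 10 of the other 19 (52.6%), and before 31.3% of all genes higher in ring1a1b. The 32 also include the genes that passed the filter only through ring1a1b, so this share is a description too.

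Some other seed genes were also higher in ring1a1b. Of 12 storage and oil body genes, 8 were tested and 5 were called higher in ring1a1b, where 10% of all genes were. CRB, SESA4 and OLEO4 were not called. CRC and OLEO1 each had 0 reads in Col-0 and averaged 1.015 ± 1.722 in al24567 (SD). They could pass the filter on low values only with the ring1a1b libraries, so their calls are a description. The list had summed values of 769 to 3462 in ring1a1b, 65.3 to 136 in al24567 and 31.3 to 48.7 in Col-0. OLEO2, an oleosin gene, averaged 176 ± 37.7 in ring1a1b, 6.98 ± 4.52 in al24567 and 0 in Col-0, and CRA1, a cruciferin gene, 916 ± 547 in ring1a1b, 11.3 ± 13.3 in al24567 and 4.83 ± 2.34 in Col-0 (SD, n = 3 each). In al24567 3 of the 12 were higher, against 17.9% of all genes. Genes of the list without reads numbered 0 in ring1a1b, 5 in al24567 and 8 in Col-0. Reads summed over ring1a1b were few for SESA4 (3), CRB (7), SESA3 (7), SESA1 (9), SESA5 (12) and SESA2 (23). In each of these the SD over the ring1a1b libraries was above the mean. The part of seed or embryo tissue in the LEA levels was not tested.

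Of 12 regulators of seed maturation, 9 were tested and 5 were higher in ring1a1b: ABI3 (4.62 ± 0.55), DOG1 (2.63 ± 0.39), ABI5 (1.74 ± 0.39), ABI4 and EEL. Of all genes, 10% were. ABI4 had 1 read in Col-0 and averaged 1.076 ± 1.849 in al24567 (SD). It could pass the filter on low values only with the ring1a1b libraries, so its call is a description. In al24567 DOG1 (-2.87 ± 0.39) and ABI5 (-1.31 ± 0.39) were lower (limma), where 18.4% of all genes were, a share near that of the list. ABI3, the B3 factor of abscisic acid response in seeds, averaged 35.7 ± 8.78 in ring1a1b, 1.76 ± 0.60 in al24567 and 0.69 ± 1.19 in Col-0. Reads summed over ring1a1b, al24567 and Col-0 were 0, 0 and 2 for LEC1, 1, 0 and 5 for LEC2, and 3, 0 and 4 for L1L. For FUS3 they were 7, 1 and 9. LEC1, LEC2 and L1L were too low to be tested, and FUS3 was not called. Of the 4 bZIP genes of abscisic acid response in leaves, ABF1 was higher in ring1a1b (0.70 ± 0.23), and ABF1 (-0.81 ± 0.23) and ABF4 (-0.33 ± 0.080) were lower in al24567. The shares over all genes were again 10% and 18.4%.

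Of 11 cold and drought genes, 6 were higher in ring1a1b, and 1 was higher and 5 lower in al24567. Over all genes, 10% were higher in ring1a1b, and 17.9% were higher and 18.4% lower in al24567. RD29B, a target of abscisic acid, averaged 2586 ± 625 in ring1a1b, 271 ± 165 in al24567 and 126 ± 20.2 in Col-0 (SD, n = 3 each), a rise of 4.34 ± 0.31 in ring1a1b and 0.90 ± 0.31 in al24567. KIN2, a cold-regulated gene, moved in opposite directions as COR15A did, at 0.81 ± 0.086 in ring1a1b and -0.51 ± 0.086 in al24567, and so did ADH1, at 0.53 ± 0.16 and -1.06 ± 0.16. All 3 CBF genes were lower in al24567, and CBF3 was higher in ring1a1b (1.48 ± 0.33). The part of these factors in the levels of the LEA genes was not tested.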

How the data were processed

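The deposited table holds 1 signal value per gene and library, with no statement of its unit. Per the submitters' processing notes, bcl2fastq, HISAT2 and edgeR were used with TAIR10; versions, counting tool and strandedness are not given in the sources used here. From the values, the deposited signal is read counts that edgeR adjusted to a common library size: inverting that adjustment with a dispersion of 0.00826 gave whole reads for all 292932 values, taking a value as whole within 0.01 reads or a relative 1e-05, with library sizes within 1.05% of TMM sizes.

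The test was limma-trend 3.58.1 in R 4.3.3 on log2(value + 1), so differences of low genes are understated. It covered 23207 genes that reached a value of 1 in 3 libraries or more, in 1 model of 9 libraries with 6 residual degrees of freedom and Benjamini-Hochberg adjustment over all genes. Ratios to groups with 0 reads use a floor of 3 reads over the group, and ratios to 1 to 3 reads have exact 95% counting intervals, which cover counting error only. Levels per kilobase use exon length in RefSeq TAIR10.1, in which all 51 identifiers were found. Calling was tested on simulated data. Alternatives were a pseudocount of 0.1, other filters, equal totals, only the 2 genotypes compared, a replicate block, edgeR 4.0.16 and DESeq2 1.42.0 on recovered reads, stricter thresholds and each library left out. LEA genes with values in every library were those called with a log2 difference of at least 1, those called in opposite directions, and EM1, EM6, COR15A, COR15B and RAB18, and the others named were chosen after their values were seen. The genes, lists and tests were chosen with earlier results of these data known. Marker lists of 12 storage and oil body, 12 regulator, 4 bZIP, 11 cold and drought, 5 leaf, 4 root and 3 pollen genes were used; of the pollen markers 1 was tested, HAP2, which was lower in al24567 and not called in ring1a1b. Figures were made with Python 3.11.15 and matplotlib 3.10.9.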

Additional observations from a re-analysis of the deposited data

How the results depend on the processing

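The counts of LEA genes called kept within 1.5 times of those given, except with a 2-fold minimum: lower genes then numbered 2 in al24567 against Col-0, 0 in ring1a1b against Col-0 and 0 in ring1a1b against al24567 (1 and 2 by adjusted p alone). With each library left out, higher genes numbered 8 to 11 in al24567 and 28 to 31 in ring1a1b against Col-0, and 31 to 33 between the mutants; lower genes numbered 5 to 7, 1 and 2. With a limit of 30 Col-0 reads the silent class held 31 genes in place of 20. Over all genes, edgeR on recovered reads called 2512 higher and 1605 lower in ring1a1b, against 2331 and 1780 by limma, and 4249 and 4123 in al24567, against 4163 and 4269. Same-numbered libraries deviated together with correlations of -0.017 to 0.038 over 9 pairs, and the other pairs with -0.032 to 0.016. Correlations this small cannot tell if same-numbered libraries were grown or prepared together, so the main fit assumed no pairing. A replicate block called AT3G17520 in al24567 (adjusted p = 0.0189, limma) and changed no other LEA call. Of 132 gene and comparison pairs tested, 39 were never called in any fit, and 15 of these changed sign under an alternative. Counts of a few reads limit what can be said of EM6, AT2G18340, AT3G22490 and the genes below the filter.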
